A study of Mus musculus with 6 samples.

Results

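Hepatocytes along the axis of a liver lobule do different work depending on where they sit, and 10 genes that mark the ends of that axis were followed in mouse livers in which the long non-coding RNA Hnf1aos1 had been silenced. The set was taken by gene symbol from the table of raw counts and holds 6 pericentral markers (Glul, Oat, Axin2, Lgr5, Tbx3 and Slc1a2) and 4 periportal markers (Hal, Sds, Gls2 and Cdh1). All 10 were found among the 40803 genes of the table, and all 10 passed the filter on low counts that left 16327 genes for testing. None of the 10 met an adjusted p under 0.05 in the comparison of the groups. The direction still differed by gene: 5 of the 6 pericentral markers had a lower fitted level in the knockdown group and Glul, the sixth, did not. The pericentral Slc1a2 and the periportal Gls2 were lower in every knockdown library than in any scramble library. The periportal Cdh1 was higher in every knockdown library. Such a separation of the groups was met by 28.9% of all genes tested.

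Zonation is the division of the liver lobule into a pericentral end around the central vein and a periportal end around the portal vein. Endothelial cells of the central vein secrete Wnt ligands and R-spondin 3, which stabilise β-catenin in the nearest hepatocytes and keep on genes for glutamine synthesis and xenobiotic metabolism. Periportal hepatocytes receive blood rich in oxygen, nutrients and glucagon and carry out ureagenesis, gluconeogenesis and the breakdown of amino acids, including the release of ammonia from glutamine that pericentral cells later recapture.

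Liver RNA was sequenced from 6 male C57BL/6J mice (C57BL6 in the sample labels), 1 library per mouse. Injection at about 6 weeks of age delivered 100 µL of recombinant adeno-associated virus serotype 8, a vector that enters hepatocytes, through the tail vein, and the liver was taken 4 weeks later. The 3 mice of the rAAV8-Scramble group received a vector with a scrambled short hairpin RNA and the 3 mice of the rAAV8-Hnf1aos1 group, called the knockdown group here, a hairpin against Hnf1aos1. Both groups thus carried the virus, a hairpin driven by the U6 promoter, which is not restricted to a cell type, and an enhanced green fluorescent protein reporter, and no uninjected mice were compared. The RNA came from whole liver, so fewer cells of a type and less RNA per cell cannot be told apart, and the position of an RNA within the lobule was not measured.

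The gene counts of a library summed to between 14704746 and 19462398. In all, 1032 of the 16327 genes tested were called, which is 6.32% of them. Of the libraries' markers, the hepatocyte list (Alb, Ttr, Apoa1, Trf, Fga and Hnf4a) summed to between 80564 and 86483 TPM (transcript abundance scaled for length and depth) in the scramble group and to between 80689 and 93232 TPM in the knockdown group. Of these 6 genes 5 had log2 fold changes above 0, and Fga, a fibrinogen chain, was called higher (log2 fold change 1.06, adjusted p 0.0141). The groups did not overlap for 3 of them, all higher, beside 15.2% of all genes tested. All 8 macrophage markers had log2 fold changes above 0, with 2 called (Adgre1 and Clec4f). Of the 8, 7 had an unadjusted p under 0.05 (edgeR), and 7 were higher with groups that did not overlap, beside 15.2% of all genes tested. The macrophage sum was 143 to 177 TPM in the scramble group and 177 to 229 TPM in the knockdown group. All 7 skeletal muscle markers had log2 fold changes below 0, with 0 called, and summed to 59.1 to 207 TPM and 24.5 to 67.7 TPM in those groups. Of the markers of these and the other cell types, Ly6g, a neutrophil gene, was the only one at 0 in every library. The part of these cell types in the values below was not tested.

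Hnf1aos1, the RNA that the hairpin targets, had 512, 491 and 620 normalized counts (raw counts scaled to a common library size) in scramble replicates 1, 2 and 3 and 278, 258 and 433 in knockdown replicates 1, 2 and 3. Every knockdown library was thus below every scramble library, and knockdown replicate 3 kept the most. The log2 fold change was −0.74 with an adjusted p of 0.0625 (edgeR quasi-likelihood test), and leaving out knockdown replicate 3 gave −1.01 with an adjusted p of 0.000261. Of the 6 fits that left out a library, only that 1 called Hnf1aos1, and adjusted p values ran up to 0.218.

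In TPM, the scale that allows levels of different genes to be compared, the 10 markers covered a wide range in the scramble group. Glul, which encodes glutamine synthetase, was the most abundant at 560 ± 70.8 TPM (SD, n = 3), followed by Oat, the mitochondrial ornithine aminotransferase, at 427 ± 98.0 TPM. The periportal enzymes came next, with Hal at 278 ± 13.5 TPM, Gls2 at 201 ± 34.4 TPM and Sds at 109 ± 7.40 TPM. Cdh1 stood at 49.6 ± 2.06 TPM, Slc1a2 at 37.2 ± 2.87 TPM and Tbx3 at 24.4 ± 3.56 TPM, and the Wnt pathway members Axin2 (6.41 ± 1.36 TPM) and Lgr5 (5.98 ± 0.912 TPM) closed the order. Of these neighbours, Glul and Oat overlapped over the scramble libraries, as did Axin2 and Lgr5, and did not differ beyond their spread, while the other neighbours did not overlap. The knockdown order was the same but for its end, where Lgr5 (4.17 ± 1.17 TPM) stood before Axin2 (3.58 ± 1.07 TPM) with overlapping ranges. Oat and Hal also overlapped in the knockdown group, as did Slc1a2 and Tbx3.

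**Figure D1:**
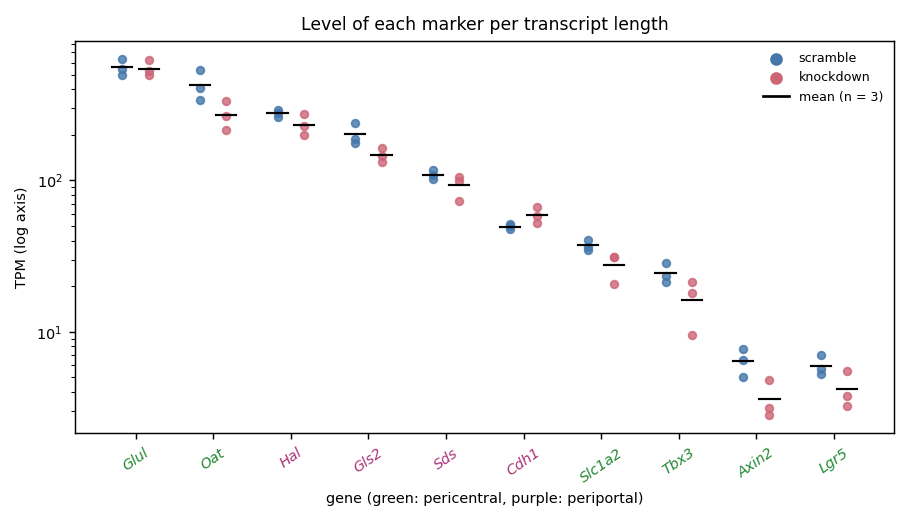
TPM values of the 10 markers on a log axis, with 1 point per library and a line at the mean of the 3 libraries of a group; gene names are green for pericentral and purple for periportal markers. Levels run from Glul (mean 560 TPM in the scramble group) down to Axin2 and Lgr5 (6.41 and 5.98 TPM).

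Axin2 and Lgr5, the markers that belong to the Wnt pathway itself, had lower mean levels in the knockdown group without passing the test, and Axin2 had the largest fitted difference of the 10. Axin2, on chromosome 11 at 108920349 to 108950783 of GRCm38 (plus strand), encodes a scaffold of the complex that degrades β-catenin and is itself switched on by the pathway, so that it acts as a feedback inhibitor. It had 207, 272 and 306 normalized counts in scramble replicates 1, 2 and 3 and 130, 212 and 123 in knockdown replicates 1, 2 and 3. Knockdown replicates 1 and 3 lay below all scramble libraries and knockdown replicate 2 lay within them, so the groups overlapped. The means were 262 ± 50.1 and 155 ± 49.5 normalized counts (SD, n = 3), and the fitted log2 fold change was −0.76 (SE 0.226, 95% interval −1.27 to −0.24), with an unadjusted p of 0.00871 and an adjusted p of 0.0841. Axin2 was called in 2 of 8 alternative fits, DESeq2 among them (−0.75, adjusted p 0.0176), and in 1 of the 6 fits that left out a library. That fit left out knockdown replicate 2, the library within the scramble range (−1.04, adjusted p 0.0207), and over all 6 the change ran from −1.04 to −0.61 with adjusted p values up to 0.273.

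Lgr5 (chromosome 10, 115450311 to 115587780, minus strand) encodes a receptor for R-spondins, the ligands that raise Wnt sensitivity by protecting the Frizzled receptors. Its scramble libraries had 193, 209 and 245 normalized counts, and knockdown replicates 1, 2 and 3 had 119, 214 and 146. As for Axin2, knockdown replicate 2 stayed within the scramble libraries and the other two lay below them. Its log2 fold change was −0.43 (SE 0.201, 95% interval −0.88 to 0.012; adjusted p 0.224), no alternative fit called it, and Lgr5 moved to −0.27 without knockdown replicate 1 and to −0.70 without knockdown replicate 2. Tbx3 (chromosome 5, 119670669 to 119684724, plus strand), a T-box transcriptional repressor of pericentral hepatocytes, had 861, 1148 and 892 normalized counts in the scramble group and 723, 918 and 404 in the knockdown group. Knockdown replicate 3 was the lowest of the 6 libraries and knockdown replicate 2 lay within the scramble range, and the log2 fold change of −0.51 had a wide 95% interval, −1.31 to 0.30 (SE 0.318, adjusted p 0.406). The Tbx3 value was −0.23 without knockdown replicate 3 and −0.78 without knockdown replicate 2.

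The pericentral genes of glutamate and glutamine handling did not move alike. Glul (chromosome 1, 153899944 to 153909723, plus strand), whose enzyme joins ammonia to glutamate in the hepatocytes next to the central vein, had 10776, 13940 and 11294 normalized counts in the scramble group and 13470, 12177 and 11331 in the knockdown group. The knockdown libraries all lay between the lowest and the highest scramble library. The log2 fold change was 0.04 (SE 0.122, adjusted p 0.885), which took a negative sign under 1 other scaling and without any one of 3 libraries, and its 95% interval of −0.23 to 0.31 allows a knockdown level between 85.3% and 124% of the scramble level. Oat (chromosome 7, 132557478 to 132576398, minus strand), which turns ornithine into a precursor of glutamate and proline, had 5698, 9015 and 6497 normalized counts in the scramble group and 3597, 5963 and 4711 in the knockdown group. Knockdown replicates 1 and 3 were below the lowest scramble library and knockdown replicate 2 was just above it. The log2 fold change of Oat was −0.57 (SE 0.228, 95% interval −1.11 to −0.036), with an unadjusted p of 0.0395 and an adjusted p of 0.188. Oat was called by DESeq2 (adjusted p 0.0281), and its change was −0.36 (adjusted p 0.324) without scramble replicate 2; of the 6 fits that left out a library 0 called it.

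Slc1a2 (chromosome 2, 102658659 to 102790784, plus strand) encodes a sodium-coupled glutamate transporter that loads pericentral cells with the substrate of glutamine synthetase. It had 3828, 4283 and 3495 normalized counts in the scramble group and 2186, 3471 and 3481 in the knockdown group. The groups did not overlap, but knockdown replicates 2 and 3 lay just under the lowest scramble library and replicate 1 carried most of the difference. The log2 fold change was −0.34 (SE 0.175, 95% interval −0.74 to 0.054; adjusted p 0.276), and an exact two-sided permutation test gave 0.1, the smallest p that 3 against 3 libraries allow. Without knockdown replicate 1 the Slc1a2 change was −0.16 (adjusted p 0.452).

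Among the periportal enzymes of amino acid breakdown, Hal and Sds overlapped between the groups and Gls2 did not. Hal (chromosome 10, 93488768 to 93519304, plus strand), the histidine ammonia-lyase that starts histidine breakdown, had 6254, 6073 and 5433 normalized counts in the scramble group and 4309, 5220 and 6221 in the knockdown group. Knockdown replicate 3 lay among the scramble libraries while replicates 1 and 2 lay below them all. Its log2 fold change was −0.17 (SE 0.13, 95% interval −0.46 to 0.11; adjusted p 0.454) and became 0.030 with library sizes taken from spike-in RNAs. Sds (chromosome 5, 120476526 to 120483932, plus strand), a serine dehydratase that feeds serine into gluconeogenesis and is induced by glucagon, had 1233, 1173 and 1272 normalized counts in the scramble group and 1208, 895 and 1190 in the knockdown group. Here knockdown replicate 2 was the only library outside the scramble range, and the log2 fold change was −0.16 (SE 0.116, 95% interval −0.41 to 0.094; adjusted p 0.436), or 0.043 with the spike-in sizes. That scaling moved the median of all genes tested to 0.20, so both genes remained under the median.

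Gls2 (chromosome 10, 128194457 to 128210004, plus strand) encodes the liver-type glutaminase, which releases ammonia from glutamine for the urea cycle at the end of the lobule opposite to Glul. It had 3389, 4688 and 3463 normalized counts in the scramble group and 2563, 2995 and 3350 in the knockdown group. Each knockdown library was below each scramble library, although knockdown replicate 3 and scramble replicate 1 lay close together. The means of 3847 ± 730 and 2970 ± 394 normalized counts (SD, n = 3) gave a log2 fold change of −0.37 (SE 0.143, 95% interval −0.69 to −0.057), with an unadjusted p of 0.0248 and an adjusted p of 0.146. The level was 77.2% of the scramble level, with an interval of 62.0% to 96.1%. Without scramble replicate 2, the highest library, the Gls2 change was −0.21 (adjusted p 0.348), and it was called without the filter on low counts (adjusted p 0.0191).

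Cdh1 (chromosome 8, 106603351 to 106670246, plus strand), which encodes the adhesion protein E-cadherin and marks periportal hepatocytes as well as bile duct cells, was the only member whose knockdown libraries all lay above the scramble libraries. The scramble values were 1708, 1650 and 1698 normalized counts and the knockdown values 2320, 1919 and 2109. The scramble libraries were tight, at 1685 ± 31.3 against 2116 ± 201 in the knockdown group (SD, n = 3). The log2 fold change of Cdh1 was 0.33 (SE 0.0929, 95% interval 0.12 to 0.53), with an unadjusted p of 0.00447 and an adjusted p of 0.0604. With spike-in library sizes it was 0.53 (adjusted p 0.0058), a scaling that raised the median of all genes to 0.20 and called 3394 of them. It was also called without the filter on low counts (adjusted p 0.0333), and leaving out knockdown replicate 1 gave 0.25 (adjusted p 0.167).

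Bile duct cells also carry E-cadherin, so the cholangiocyte list belongs beside that value. Its 9 markers summed to 50.4 to 57.6 TPM in the scramble group and to 61.5 to 198 TPM in the knockdown group, and the top of that range came from Spp1, the secreted protein osteopontin, which had 2161 normalized counts in knockdown replicate 1 against 426 and 513 in replicates 2 and 3 and 282 to 319 in the scramble group. Epcam, an epithelial adhesion protein, had 83.9, 9.5 and 15.4 normalized counts in knockdown replicates 1, 2 and 3 and 18.5, 26.3 and 40.7 in the scramble libraries, so that it too was highest in knockdown replicate 1 but below all scramble libraries in replicates 2 and 3. The keratin Krt19 had 14.3, 15.2 and 0.906 normalized counts in the knockdown libraries and 30.8, 13.2 and 17.6 in the scramble libraries (log2 fold change −1.03, adjusted p 0.374). Cdh1 was likewise highest in knockdown replicate 1, and it was above all scramble libraries in the other two as well. The part of bile duct cells in the Cdh1 value was not tested.

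**Figure D2:**
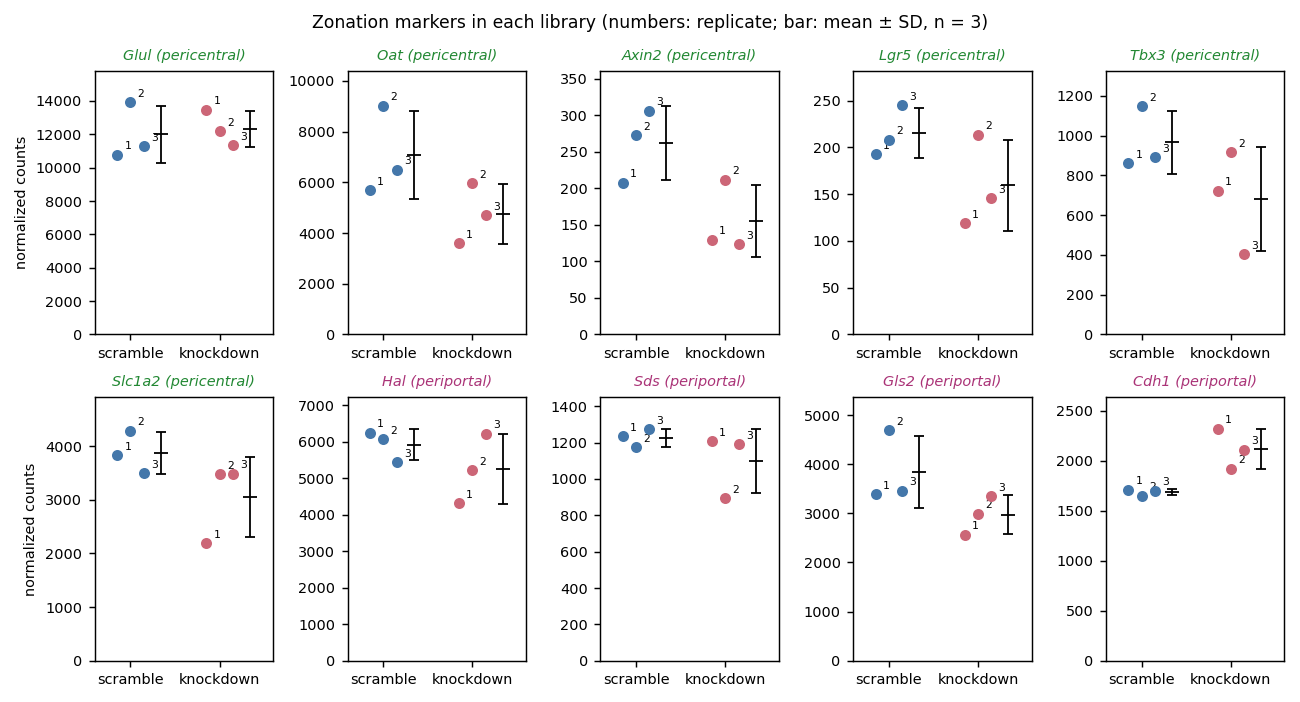
Normalized counts of each marker by group on axes that start at 0, with 1 numbered point per library (the number is the replicate) and the mean with its SD (n = 3) beside the points. The groups do not overlap for Slc1a2, Gls2 and Cdh1, and knockdown replicate 2 lies within the scramble range for Oat, Axin2, Lgr5, Tbx3 and Glul.

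By zone, the fitted log2 fold changes had a median of −0.47 over the 6 pericentral markers (−0.76 to 0.04) and of −0.17 over the 4 periportal markers (−0.37 to 0.33), beside −0.00040 over all genes tested. With the spike-in sizes all 3 medians were higher, at −0.27, 0.037 and 0.20 in that order, and both zones stayed below all genes tested. The edgeR test called 0 of the 10 in either direction, where 6.32% of all genes tested were called, 3.23% as lower and 3.09% as higher. An unadjusted p under 0.05 was met by 4 of the 10 (Oat, Axin2 and Gls2 as lower, Cdh1 as higher), against 23.4% of all genes, and 11.4% as lower. DESeq2 called 2 (Oat and Axin2) and limma's voom called 0. The groups did not overlap for 3 of the 10, beside 28.9% of all genes tested. Of these, Slc1a2 and Gls2 were lower (2 markers, beside 13.7% of all genes) and Cdh1 was higher (1 marker, beside 15.2%). The zones were not tested against each other.

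**Figure D3:**
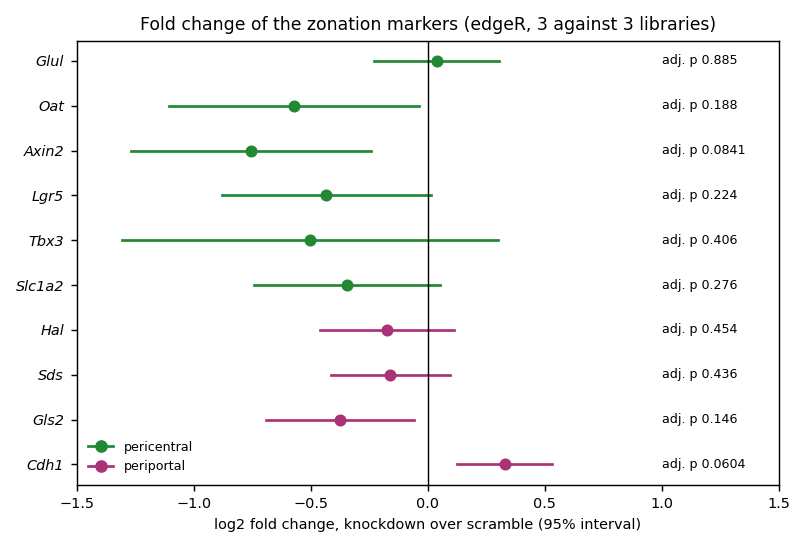
Log2 fold change of each marker, knockdown over scramble, with its 95% interval from the edgeR fit and its adjusted p at the right; green lines are pericentral and purple lines periportal markers. The intervals of Oat, Axin2 and Gls2 lie below 0 and that of Cdh1 above 0, and no adjusted p is under 0.05.

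The 3 knockdown livers differed from one another more than the medians show. Against the mean of the scramble group, the median log2 ratio of the pericentral markers was −0.84 in knockdown replicate 1, −0.12 in replicate 2 and −0.57 in replicate 3, while the median of all genes tested was −0.017 in replicate 1 and nearer to 0 in the others. Knockdown replicates 1 and 3 each had 5 of the 6 pericentral markers below every scramble library and replicate 2 had 1 of the 6. For the periportal markers the order of the livers was another: replicate 2 had 3 of the 4 below every scramble library, replicate 1 had 2 and replicate 3 had 1. Replicate 3 had the lowest Tbx3, at a log2 ratio of −1.26, and replicate 1 the lowest Oat, Lgr5 and Slc1a2, at −0.97, −0.85 and −0.82. Axin2 was nearly the same in replicates 3 and 1, at −1.08 and −1.01. Without knockdown replicate 2 the pericentral median was −0.73. Hnf1aos1 had 278, 258 and 433 normalized counts in knockdown replicates 1, 2 and 3, and its relation to these ratios was not tested.

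**Figure D4:**
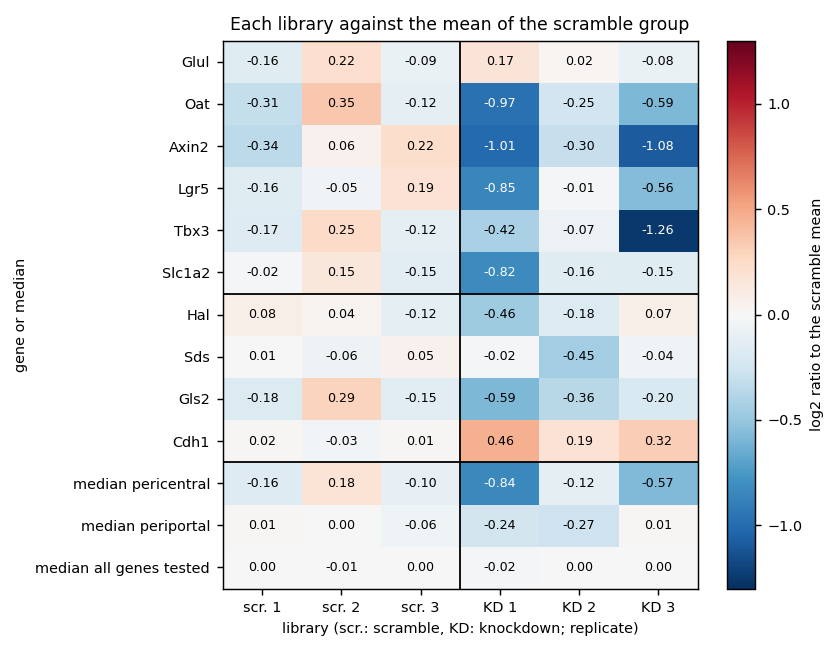
Log2 ratio of each library to the mean of the scramble group for each marker, for the median of each zone and for the median of all genes tested; blue is lower and red is higher. The pericentral median is −0.84 and −0.57 in knockdown replicates 1 and 3 and −0.12 in replicate 2, and Cdh1 is above the scramble mean in all 3.

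Promoter windows, reaching from 250 bases before to 50 bases after the start of a gene, were found in the RefSeq table (GRCm38.p6) for 5 of the 10 members, Glul, Oat, Axin2, Slc1a2 and Hal. The letters CTTTGAT, a core bound by the TCF/LEF factors that partner β-catenin, were searched on both strands and stand in the windows of Slc1a2 (207 to 201 bases before the start, on the other strand) and Hal (199 to 193 bases before the start), as in 3.73% of all 32851 windows. The 250 bases before the start are shown for these 2 genes, 1 pericentral and 1 periportal, and for Axin2, the feedback gene of the pathway, whose window does not hold these letters; capitals mark the TCF/LEF letters, and each sequence is printed 5′ to 3′ on the plus strand. The Slc1a2 window belongs to a transcript start inside the gene.
Axin2, chr11:108920099-108920348: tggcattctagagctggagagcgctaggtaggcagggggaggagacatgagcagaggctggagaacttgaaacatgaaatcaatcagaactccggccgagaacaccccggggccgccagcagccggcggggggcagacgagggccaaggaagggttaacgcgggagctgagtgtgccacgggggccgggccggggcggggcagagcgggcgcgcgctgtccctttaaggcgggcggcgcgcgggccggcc
Slc1a2, chr2:102706188-102706437: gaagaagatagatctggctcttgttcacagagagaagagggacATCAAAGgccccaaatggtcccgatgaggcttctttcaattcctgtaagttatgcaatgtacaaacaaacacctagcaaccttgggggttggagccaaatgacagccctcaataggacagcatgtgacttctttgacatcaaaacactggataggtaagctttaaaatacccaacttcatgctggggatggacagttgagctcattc
Hal, chr10:93488518-93488767: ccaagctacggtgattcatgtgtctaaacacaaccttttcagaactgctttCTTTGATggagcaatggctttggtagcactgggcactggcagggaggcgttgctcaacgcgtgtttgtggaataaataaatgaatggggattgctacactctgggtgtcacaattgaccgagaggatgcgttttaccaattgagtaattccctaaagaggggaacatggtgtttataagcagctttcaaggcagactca

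The 3 windows also differ in composition: 69.2% of the Axin2 bases are G or C with 24 CG pairs, against 44.8% and 1 CG pair for Slc1a2 and 45.6% and 6 for Hal. None of the 5 windows holds the HNF1 motif (in 0.0609% of all windows), CAAAGTCCA (HNF4, 0.475%) or TGACGTCA (the cAMP response element, 1.79%), each searched on both strands. A match describes letters and is no evidence of binding.

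The genes of the pathway that sets the pericentral end were taken from lists, in which an adjusted p under 0.05 again made a call. Of the Wnt ligands and R-spondins 0 of the 5 tested were called, by edgeR, DESeq2 or voom, and 0 had an unadjusted p under 0.05. The extremes were Wnt2, a ligand of central vein endothelium, at a log2 fold change of −0.54 (adjusted p 0.374) and Wnt4 at 0.30 (adjusted p 0.541). Wnt2 had 57.5, 42.8 and 37.4 normalized counts in the scramble libraries and 16.2, 34.2 and 44.4 in the knockdown libraries, which overlap. Central vein endothelium is a source of Wnt2. Its markers summed to 10.8 to 11.8 TPM in the scramble group and to 8.86 to 10.2 TPM in the knockdown group, with 4 of 5 below 0 and 0 of 5 called. Sinusoidal endothelial markers summed to 140 to 144 TPM and 115 to 140 TPM in those groups, with 6 of 7 below 0 and 0 called. The part of endothelial cells in the pericentral values was not tested.

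Of 11 Wnt receptors and factors of receptor turnover 1 was called, Lgr4, an R-spondin receptor like Lgr5 but found in all hepatocytes. Lgr4 had 1698, 1802 and 1483 normalized counts in the scramble group and 2386, 2324 and 2052 in the knockdown group, so that it was higher in every knockdown library, with a log2 fold change of 0.44 (SE 0.102, adjusted p 0.0307). The call was kept in 1 of the 6 fits that left out a library. Lgr4 and Lgr5, which bind the same ligands, thus had fitted changes of opposite sign, only the first of which passed the test. In the β-catenin core, 0 of 13 genes were called by edgeR, DESeq2 or voom and 3 had an unadjusted p under 0.05, 2 as higher and 1 as lower. Of the 13, 8 lay above 0 and 5 below. The groups did not overlap for 3 as higher and 1 as lower, beside 15.2% and 13.7% of all genes tested. Lef1, one of the DNA-binding partners of β-catenin, had 15.4, 13.2 and 17.6 normalized counts in the scramble group and 5.72, 7.60 and 5.43 in the knockdown group (log2 fold change −1.28, adjusted p 0.0760), and Tcf7l1 had −0.33 (adjusted p 0.346). The Lef1 change rests on few reads, at mean levels of 0.446 TPM in the scramble group and 0.171 TPM in the knockdown group.

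Among 6 genes of Wnt feedback and general targets, Apcdd1, a membrane inhibitor of Wnt signalling, was called lower. It had 26.7, 43.9 and 31.9 normalized counts in the scramble group and 9.54, 9.5 and 5.43 in the knockdown group (log2 fold change −2.05, SE 0.366, adjusted p 0.0111). The Apcdd1 change rests on few reads, at mean levels of 1.06 TPM in the scramble group and 0.242 TPM in the knockdown group. The call was kept in 5 of the 6 fits that left out a library and lost without scramble replicate 3. A filter at a mean of 50 counts left the gene untested. In the same list Myc, named here after its values were seen, had 75.9, 82.3 and 56.1 normalized counts in the scramble group and 123, 303 and 584 in the knockdown group. Its groups did not overlap, but the knockdown libraries spread so widely that the log2 fold change of 2.24 had an adjusted p of 0.138; DESeq2 called it.

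The markers of zonation outside the 10 also held genes of both directions. Of 18 other pericentral genes 1 was called, Nr1i3, the nuclear receptor CAR of xenobiotic metabolism. Nr1i3 had 616, 623 and 584 normalized counts in the scramble group and 335, 475 and 368 in the knockdown group, lower in every library, with a log2 fold change of −0.63 (SE 0.126, adjusted p 0.0172). The list had 11 genes below 0 and 7 above, with a median of −0.11. An unadjusted p under 0.05 was met by 4 as lower and 2 as higher, and DESeq2 called 2 (Nr1i3 and Slc22a3). Its groups did not overlap for 5 lower genes and 1 higher gene, beside 13.7% and 15.2% of all genes tested. Of 17 other periportal genes 0 were called by edgeR, 6 had an unadjusted p under 0.05, and 9 lay below 0 and 8 above, with a median of −0.13. DESeq2 called 2 of these (Asl and Etnppl) and voom called 1 (Etnppl). The groups did not overlap for 5 periportal genes as lower and 2 as higher, beside the same shares of all genes. Etnppl, an ethanolamine-phosphate phospholyase, had 3925, 3050 and 2624 normalized counts in the scramble group and 1232, 1194 and 2023 in the knockdown group (log2 fold change −1.11, adjusted p 0.0576), and G6pc, the last enzyme of gluconeogenesis, had −0.67 (adjusted p 0.384). Of 4 midlobular genes 0 were called by edgeR, DESeq2 or voom and 1 had an unadjusted p under 0.05; Hamp2 had a log2 fold change of −0.72 (adjusted p 0.108) and Hamp, which encodes the iron hormone hepcidin, had 0.25 (adjusted p 0.809).

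The metabolic steps around the markers were covered by further lists. Of the 24 genes tested for glutamine, glutamate and ammonia handling, which connect Glul, Oat, Slc1a2 and Gls2, 0 were called by edgeR, DESeq2 or voom, 1 had an unadjusted p under 0.05, and the median log2 fold change was −0.01. Asns, the asparagine synthetase that uses glutamine, had 0.97 (adjusted p 0.384) with overlapping groups, and Slc7a2, a cationic amino acid transporter, had −0.51 (adjusted p 0.210). Around Hal and Sds, 0 of 15 genes of histidine and serine metabolism were called by these tools and 2 had an unadjusted p under 0.05, with 11 below 0 and a median of −0.16. The largest there were Psph, the last enzyme of serine synthesis, at 0.45 (adjusted p 0.220), and Psat1, of the step before it, at −0.41 (adjusted p 0.505).

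Hormonal and fasting genes, which share regulation with Sds, held the most calls of the lists, with 3 of 16 lower and 0 higher, where 3.23% of all genes tested were called lower. Tat, the tyrosine aminotransferase, had 28789, 26735 and 27094 normalized counts in the scramble group and 19056, 14807 and 16196 in the knockdown group (log2 fold change −0.72, SE 0.116, adjusted p 0.00766). Klf15, a transcription factor of amino acid breakdown, fell by 0.69 on the log2 scale (adjusted p 0.0106). As background, Tat and Klf15 are known as genes of fasting. In the list of adherens junction genes, which act with Cdh1, 1 of 10 was called: Nectin1, an adhesion protein, was lower at 2364, 2101 and 2351 normalized counts against 2848, 3718 and 3254 (log2 fold change −0.53, adjusted p 0.0211), a call lost with the spike-in sizes. Ctnnb1, which encodes β-catenin and links E-cadherin to the cytoskeleton besides its Wnt role, was not called (log2 fold change 0.27, adjusted p 0.0877). Every knockdown library lay above the scramble libraries for Ctnnb1, as for 15.2% of all genes tested.

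**Figure D5:**
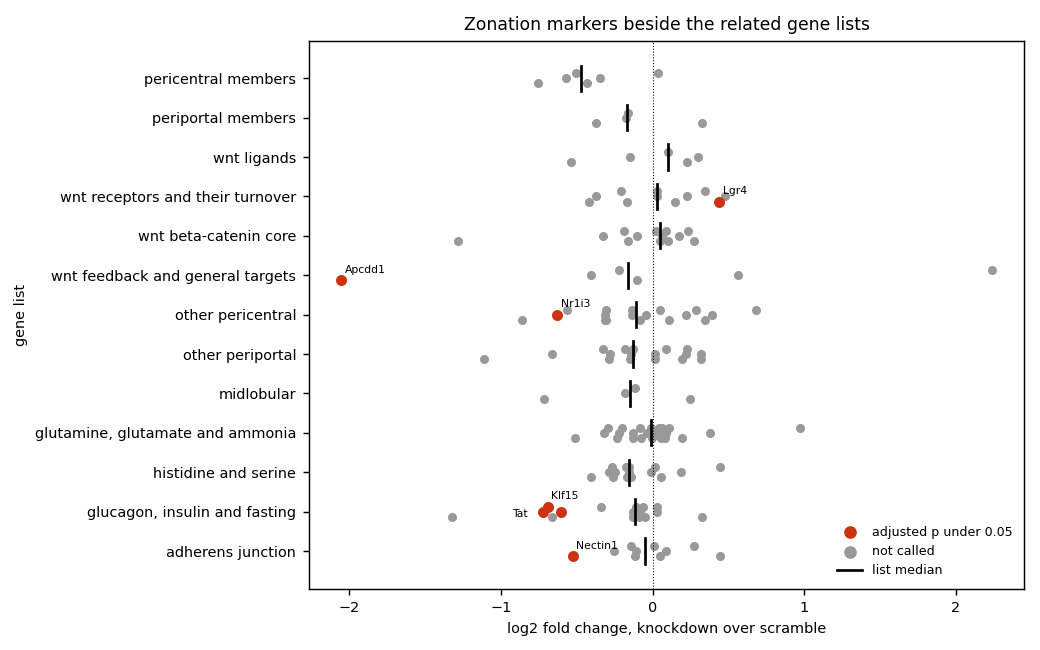
Log2 fold change, knockdown over scramble, of each gene tested in the 2 marker sets and the related lists, with called genes in red, 6 of them named, and a black line at the list median. The named genes are Lgr4 (0.44), Apcdd1 (−2.05), Nr1i3 (−0.63), Tat (−0.72), Klf15 (−0.69) and Nectin1 (−0.53), and no zonation marker is called.

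In all, 7 of the 132 list genes tested were called, where 6.32% of all genes were, so that the lists held no more calls than the background gives. The count moved with the library left out as the count over all genes did: it was 0 without scramble replicate 3 (103 of all genes), 4 without scramble replicate 2 or knockdown replicate 2 (391 and 323), and 18 without knockdown replicate 3 (1881).

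The genes whose pattern over the 6 libraries was closest to that of Glul and of Hal were found by the Pearson correlation of log2 CPM (counts scaled to depth) over all genes tested. Those named for Glul are Commd4 (r = 0.98) and Tuba1b (r = 0.98), and for Hal Lrrc3 (r = 0.996), Naa60 (r = 0.996) and Slc22a23 (r = 0.995). None of these was called. With 6 points, 16327 candidates and libraries that share their depth and group, such values describe likeness only.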

How the data were processed

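Liver RNA libraries of 3 rAAV8-Scramble and 3 rAAV8-Hnf1aos1 mice were used. The authors trimmed the 150-base read pairs with Trimmomatic, used STAR for alignment to GRCm38 and featureCounts for reads that mapped once and to exons, and they deposited the raw counts per gene; the sample labels name GRCm39 instead. The authors also deposited TPM values, used here only for levels between genes, as well as normalized counts and their own DESeq2 fold changes and p-values, neither of which was used. The methods describe a stranded poly(A) kit and the labels depletion of ribosomal RNA; the strand setting of the counting is not given in the sources used here, and exons of 6 of the 10 markers share bases with a gene on the opposite strand in GENCODE M21 (GRCm38), the source of the coordinates.

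The 92 spike-in rows, 1.18% to 1.52% of the counts of a library, were left out. In R 4.3.3 with edgeR 4.0.16, counts were scaled by TMM, filtered by filterByExpr and compared with robust quasi-likelihood fits on the group alone, and p-values were adjusted by Benjamini and Hochberg over all genes tested. The SE is the log2 fold change divided by the square root of F. Normalized counts are counts scaled to the mean effective library size. The permutation tests were exact, two-sided and on log2 values. On simulated data with 16327 genes, edgeR recovered 90.25% of the 200 given a log2 fold change of 2 in either direction. The fitted changes of the markers were smaller, so this share does not apply to them. DESeq2 1.42.0, limma 3.58.1 (voom), 3 other scalings, 2 other filters, the replicate number as a block and each library left out were the alternatives. Replicates of a group are separate mice and gave a chi-square of 7.68 to 31.6 per gene when compared in pairs, where counting noise gives about 1.

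The named genes are the 10 markers, Hnf1aos1, the called genes of each list (at most 4 in each direction by adjusted p), the 2 largest log2 fold changes of a list without a call, and the 3 genes most correlated with Glul and with Hal; others are marked or stand beside a marker value, and some genes of the rule are not reported here. The markers and lists were chosen with earlier results of these data known. Figures were drawn with matplotlib 3.10.9.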

Additional observations from a re-analysis of the deposited data

How the results depend on the processing

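The count of zonation markers called, 0, became 2 with DESeq2, 1 with spike-in library sizes, 3 without a filter on low counts, and ranged from 0 to 1 when each library was left out. With the replicate number as a block it was 1 (Oat, −0.57, adjusted p 0.0211), and the block called 9 of the list genes. In that edgeR fit 7 of the 10 markers had an unadjusted p under 0.05, against 4 without the block. Deviations of libraries with the same number correlated at −0.0226, 0.0231 and 0.00321 over all genes tested, so no pairing was seen over all genes. Whether a smaller set of genes shares a factor with the number was not tested. The unfiltered calls were Axin2 (adjusted p 0.00345), Gls2 (0.0191) and Cdh1 (0.0333). The fixed lists, with 7 calls, had 11 with DESeq2, 23 with spike-in sizes, 16 without a filter and 0 to 18 with a library left out. Calls over all genes ranged from 817 to 3394 over the alternatives and from 103 (without scramble replicate 3) to 1881 (without knockdown replicate 3) with a library left out. Hnf1aos1 was called with DESeq2 (−0.74, adjusted p 0.00346), without a filter (−0.74, 0.00564), with voom (−0.77, 0.0418) and with the block (−0.77, 0.0138), and ranged from −1.01 to −0.60 with a library left out. The pericentral median ranged from −0.73 to −0.34 with a library left out and the periportal median from −0.26 to −0.098; with spike-in sizes they were −0.27 and 0.037, beside 0.20 for all genes. Glul turned to −0.031 with library totals alone, and to −0.031, −0.0093 and −0.038 without scramble replicate 1, scramble replicate 3 and knockdown replicate 1 (range −0.038 to 0.16 with a library left out). Hal turned to 0.030 and Sds to 0.043 with spike-in sizes. The cause of these shifts was not tested. Axin2 and Lgr5, at 119 to 306 normalized counts, have the fewest reads of the markers.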
